A study of Mus musculus with 2 samples.

Results

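Krt78-positive corneal epithelial cells numbered 289 of the 7668 cell barcodes in 2 droplet single-cell RNA libraries from the mouse cornea and limbus. They were chosen by thresholds on transcript counts, where 1 UMI (unique molecular identifier) stands for 1 captured RNA molecule and CPM for UMIs per 1000000 UMIs of a cell or of a pooled group. A cell entered with at least 3 Krt78 UMIs, at least 8000 CPM of Krt12, under 2000 of Krt14, under 1000 of Lce3a, under 250 of Pax6 and under 2000 of Dcn, and fewer than 3 UMIs over the mast cell proteases Mcpt4, Tpsb2 and Cma1. The wild-type library held 115 such cells of 2513 (4.58%, exact binomial 95% interval 3.79 to 5.47) and the heterozygote library 174 of 5155 (3.38%, 2.90 to 3.91). Intervals here and in what follows cover counting error only. With the heterozygote barcodes restricted to those at least as deep as the lowest wild-type barcode, the heterozygote share was 4.16%.

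The study compared wild-type mice with mice heterozygous for beclin 1 (Becn1, a core autophagy gene), by single-cell RNA sequencing of the front of the eye. Each library came from 1 female of 28 days on the C57BL/6 background, the 2 animals being littermates: 1 wild type (WT) and 1 beclin1 +/-. The lens, retina, iris, trabecular meshwork and most of the conjunctiva had been taken off, and the remaining corneal rim was dissociated with collagenase and trypsin. Genotype, animal and library preparation therefore cannot be told apart, no difference has a replicate check, and none is given a p-value.

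The corneal epithelium is a stratified sheet that renews itself from basal cells and limbal stem cells. Cells that leave the basal layer lose their anchors to the basement membrane, build desmosomes and tight junctions, and near the surface lay down crosslinked envelope proteins and a coat of membrane mucins before they are shed. Krt12 with Krt5 is the main keratin of this tissue, whereas Krt14 marks basal cells and Krt78 is a type II keratin of differentiating stratified epithelia. Of the other genes used to mark these cells, Krt13 pairs with Krt4 in non-cornified epithelia, Hopx is an atypical homeodomain cofactor of differentiation, Cldn3 is a claudin of tight junctions, and Ifit3 is an RNA-sensing effector induced by interferon.

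Median depth was 29667 UMIs in wild-type and 19676 in heterozygote members, against 16967 and 11571 over all barcodes, so the members were deep cells of both libraries. Their depths ranged from 8176 to 118467 and from 5467 to 90909 UMIs, and their pooled UMIs came to 4073782 and 3845558. Mitochondrial transcripts made up a median of 1.17% and 1.14% of their UMIs, between the 1.72% and 1.57% of Krt78-low and the 0.623% and 0.680% of the Lce3a-high cells defined next, and its part in the results was not tested. The libraries had 15 barcode sequences in common, of which 2 belonged to members. Pooled levels were compared with those of 4 other populations cut from the same libraries. Krt78-low cells met every other threshold but had under 3 Krt78 UMIs (326 and 891 cells, median depth 21698.5 and 15217 UMIs), Lce3a-high cells had at least 1000 CPM of Lce3a and met the Dcn and mast cell thresholds (56 and 126), and Krt14-high cells had at least 2000 CPM of Krt14, any Krt78 count and all other thresholds met (736 and 1385). Dcn-high cells (at least 2000 CPM of Dcn and under 8000 of Krt12; 586 and 1397) served as a stromal background. All pairs of values below give the wild-type library first and the heterozygote library second.

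The promoters of several marker genes are shown here because interferon-induced genes stood highest of the gene lists in members against neighbouring cells, and the keratin marker Krt13 is set beside them. Windows ran from 250 bases before to 50 after each transcription start in the RefSeq table of build GRCm38.p6, and the 250 upstream bases are printed 5′ to 3′ on the gene's strand. Capitals mark the core of the interferon-stimulated response element (GAAA, any 2 bases, GAAA, or TTTC, any 2 bases, TTTC on the other strand) and the AP-1 site (TGANTCA, the same on both strands). The Ifit3 window (chr19:34583279-34583528, plus strand) held 2 response element cores and 1 AP-1 site, and so did that of its neighbouring copy Ifit3b (chr19:34607707-34607956, plus strand). The Isg15 window (chr4:156200819-156201068, minus strand) held 3 cores that overlap each other. In the Krt13 window (chr11:100121567-100121816, minus strand, the first of 2 start sites) 1 AP-1 site and no core were found.
Ifit3: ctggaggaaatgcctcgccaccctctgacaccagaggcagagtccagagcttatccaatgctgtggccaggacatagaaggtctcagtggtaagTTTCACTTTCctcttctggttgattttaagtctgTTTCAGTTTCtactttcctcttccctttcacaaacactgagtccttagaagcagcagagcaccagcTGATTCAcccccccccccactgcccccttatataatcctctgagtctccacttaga
Ifit3b: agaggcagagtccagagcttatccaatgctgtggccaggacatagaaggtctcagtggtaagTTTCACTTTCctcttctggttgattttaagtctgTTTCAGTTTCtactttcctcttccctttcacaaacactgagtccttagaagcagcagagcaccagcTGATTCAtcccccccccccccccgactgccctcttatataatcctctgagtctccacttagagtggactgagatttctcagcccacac
Isg15: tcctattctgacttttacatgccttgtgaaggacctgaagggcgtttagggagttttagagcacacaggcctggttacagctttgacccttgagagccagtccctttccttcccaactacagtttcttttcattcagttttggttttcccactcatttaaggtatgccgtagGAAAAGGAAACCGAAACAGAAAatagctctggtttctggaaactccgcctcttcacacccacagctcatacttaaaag
Krt13: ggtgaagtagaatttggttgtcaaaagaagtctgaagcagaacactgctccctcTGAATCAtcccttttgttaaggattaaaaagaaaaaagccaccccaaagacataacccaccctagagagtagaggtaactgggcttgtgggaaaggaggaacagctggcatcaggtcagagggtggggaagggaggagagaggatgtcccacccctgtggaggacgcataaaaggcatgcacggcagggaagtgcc
Neither motif occurred in the windows of Krt78, Hopx, Cldn3, Oasl1 or Oasl2. Over all 32851 windows of the table, 3.44% held the response element core and 7.81% the AP-1 site. A promoter was found for 30 genes of the interferon list used below, of which 20 held the core. Counted by gene in the same way, 3.99% of all 27025 genes with a window held it. A match is a description of letters in the window and says nothing of whether a factor binds there.

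The Krt78 threshold cut through a continuous range. Members had a median of 7 Krt78 UMIs in the wild-type library (3 to 32) and 5 in the heterozygote library (3 to 24), and 19 and 49 of them sat at exactly 3. Just outside, 18 and 72 cells that met all other conditions had 2 Krt78 UMIs, 60 and 126 had 1, and 248 and 693 had none. Among the cells that failed only 1 other condition, 17 and 13 failed on Lce3a, 24 and 18 on Pax6, 4 and 22 on Krt12, 1 and 6 on Krt14, 2 and 11 on Dcn and none on the mast cell proteases. Since the threshold counts molecules, a deep cell passes it more easily than a shallow one of the same composition.

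The labelled identity held in the members' pooled levels, as a description of what the rule and the marker list chose. Krt78 itself (chromosome 15, 101946001 to 101954287 in GRCm38, minus strand) stood at 253 and 260.3 CPM in members, 10.6 and 17.1 in Krt78-low, 126 and 66.1 in Lce3a-high, 1.10 and 3.36 in Krt14-high and 1.60 and 4.28 in Dcn-high cells. Krt13 (chromosome 11, 100117327 to 100121566, minus strand) stood at 1839 and 1875 CPM in members and at 1913 and 1812 in Lce3a-high cells, and lower in Krt78-low cells with 513 and 554 and in Krt14-high cells with 54.5 and 87.8. The levels of members and Lce3a-high cells thus lay close together for Krt13, and far above those of basal-type cells. Hopx (chromosome 5, 77086988 to 77115121, minus strand) was at 175 and 168 CPM in members, 67.7 and 47.2 in Lce3a-high, 31.3 and 53.8 in Krt78-low and 2.82 and 5.96 in Krt14-high cells. Cldn3 (chromosome 5, 134986214 to 134987472, plus strand) was at 241 and 293 CPM in members, 85.7 and 138 in Krt78-low, 33.5 and 46.5 in Lce3a-high and 11.2 and 25.7 in Krt14-high cells. For Hopx and Cldn3 the members stood above all 3 other epithelial populations in both libraries. Ifit3 (chromosome 19, 34583531 to 34588731, plus strand) was at 49.8 and 107 CPM in members, 38.4 and 110.0 in Lce3a-high, 5.75 and 29.0 in Krt78-low and 0.894 and 4.12 in Krt14-high cells. Its level in Dcn-high cells lay between those of Krt14-high cells and members. Ifit3 shares most of its sequence with Ifit3b (46.9 and 100.1 CPM in members), so reads may have been split between the copies and the value of either is uncertain.

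**Figure D1:**
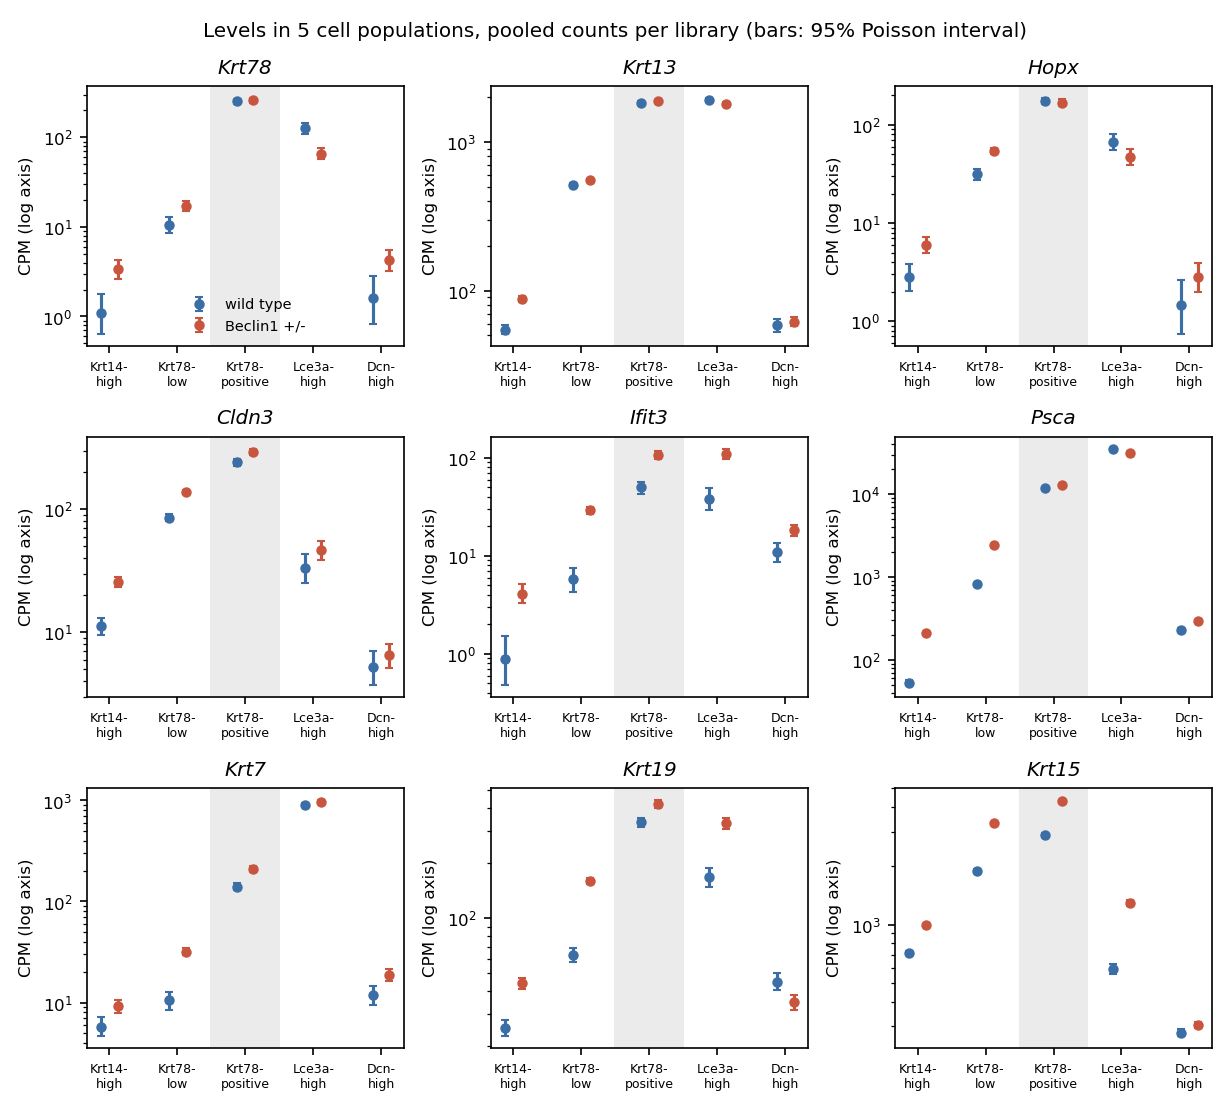
Pooled level (CPM, log axes that do not start at 0) of the 5 marker genes and of Psca, Krt7, Krt19 and Krt15 in 5 cell populations, with blue points for the wild-type and red points for the heterozygote library and bars for exact Poisson 95% intervals (counting error only); Krt78-positive cells are shaded. Hopx and Cldn3 are highest in Krt78-positive cells, while Krt13 and Ifit3 are about as high in Lce3a-high cells.

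Within the members, the markers differed in how widely they were spread over cells. With every cell thinned to 5000 UMIs, Krt13 was detected in 81.7% and 88.5% of members (94.8% and 96.6% before thinning), 39.9% and 47.3% of Krt78-low and 8.19% and 14.3% of Dcn-high cells. Hopx was detected in 55.7% and 49.4% of thinned members (92.2% and 89.7% unthinned), 11.7% and 18.4% of thinned Krt78-low and 0.341% and 0.716% of thinned Dcn-high cells. Cldn3 was detected in 62.6% and 66.1% of thinned members (90.4% and 92.5% unthinned), 29.4% and 35.6% of thinned Krt78-low and 1.71% and 2.43% of thinned Dcn-high cells. For these 3 genes the share in members was several times that in the stromal background, whose median depth was 11779 and 8233 UMIs before thinning. Ifit3 was the least widespread marker, with 20.0% and 33.9% of thinned members (55.7% and 64.4% unthinned), 3.07% and 10.3% of thinned Krt78-low and 4.78% and 6.08% of thinned Dcn-high cells. The wild-type Krt78-low share of Ifit3 lay below that of Dcn-high cells, while the pooled Krt78-low level lay above that of Krt14-high cells. How much of it was background was not tested. Per cell, the median Krt13 level was 1182 CPM (0 to 9702) in wild-type and 1323 (0 to 14797) in heterozygote members. The per-cell medians of Hopx were 135 and 149 CPM and those of Cldn3 209 and 267, and that of Ifit3 was lower in both libraries. Cells without the other keratin marker were few: 6 members of each library had no Krt13 UMI, and 100 and 154 had at least 3. Krt7, a keratin of simple and glandular epithelia, behaved otherwise, since its per-cell median was 0 in both libraries although it reached 141 and 209 CPM in the pooled members.

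**Figure D2:**
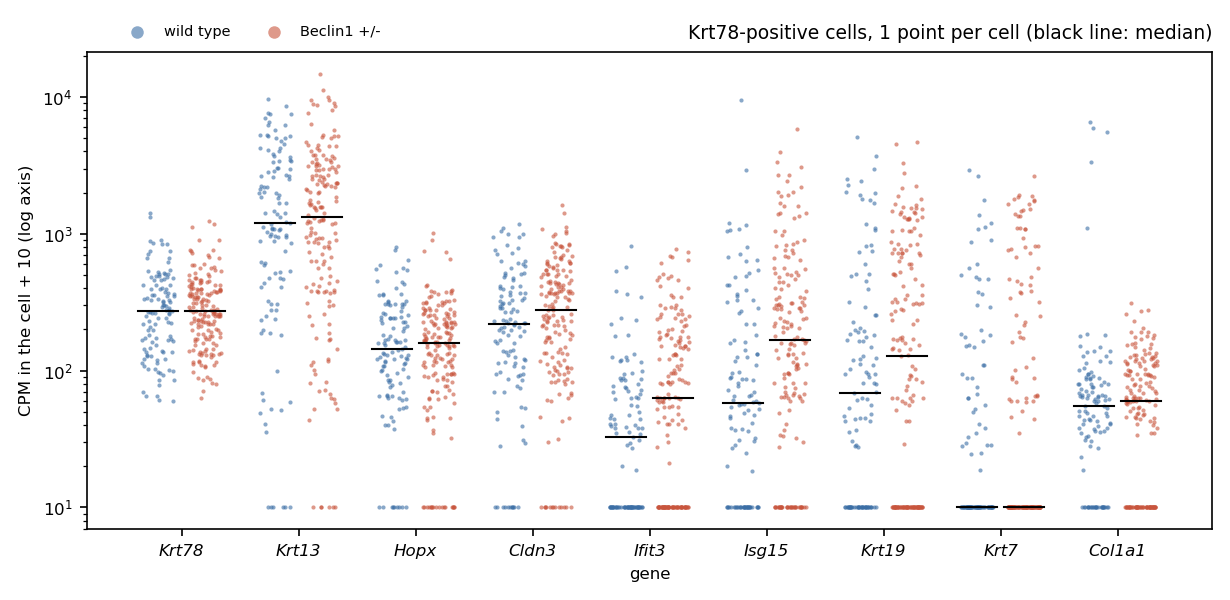
Level in each Krt78-positive cell (CPM + 10, log axis) of 9 genes in the wild-type (blue) and heterozygote (red) libraries, each point 1 cell and each black line the median, so that cells without a UMI lie at 10. Krt13, Hopx and Cldn3 have a UMI in most cells, the Krt7 median lies at the bottom, and a few wild-type cells stand far above the rest for Col1a1.

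The Krt7 counts divided the members into cells of different make-up at similar depth. No Krt7 UMI was found in 65 and 108 members, 1 or 2 in 19 and 20, and at least 3 in 31 and 46. The median depth of cells with at least 3 Krt7 UMIs was 28788 and 19676 UMIs, and that of cells with none 29667 and 19280. Psca, a GPI-anchored surface protein of superficial epithelia, stood at 28204 against 5372 CPM in the wild-type and 25338 against 8060.2 CPM in the heterozygote library in Krt7-rich against Krt7-free members. Ly6a (Sca-1), a surface protein that interferon can induce, stood at 1063 against 38.7 CPM in the wild-type and 899.5 against 71.1 CPM in the heterozygote library. Isg15, a ubiquitin-like protein induced by interferon, stood at 619.6 against 55.5 CPM in the wild-type and 1165 against 146 CPM in the heterozygote library. In the wild-type library 1 cell held 35.0% of all Isg15 UMIs of the members, against 6.74% in the heterozygote library, whereas for Ifit1bl1, at 1834 against 255 CPM in the wild-type and 2714 against 635 CPM in the heterozygote library, the top cell held 8.33% and 5.36%. Without the cell richest in Isg15 the wild-type Isg15 level of Krt7-rich members was 335 CPM. Psca, Ly6a, Isg15 and Ifit1bl1 were thus more abundant in the Krt7-rich members of each library. Asprv1, an aspartic protease that processes filaggrin, stood at 26440.3 against 11605 CPM in the wild-type and 25382 against 14318 CPM in the heterozygote library. Upk1b, a tetraspanin of the urothelial and corneal surface, stood at 2755 against 1299 CPM in the wild-type and 2855 against 1431 CPM in the heterozygote library. Krt12 stood at 20837 against 34126 CPM in the wild-type and 16667 against 29129 CPM in the heterozygote library and Krt5 at 2864 against 6885 CPM in the wild-type and 1999.6 against 5559 CPM in the heterozygote library, lower in Krt7-rich cells in each library. Cldn4, a tight junction claudin, stood at 994 against 2363 CPM in the wild-type and 516 against 1938 CPM in the heterozygote library, and Krt13 at 2238 against 1747 CPM in the wild-type and 2055 against 1767 CPM in the heterozygote library. Krt13 therefore varied less between these cells than Psca or Isg15 did. The division by Krt7 was chosen after its values were seen, every gene was measured in the same cells, and the values are a description without a test.

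**Figure D3:**
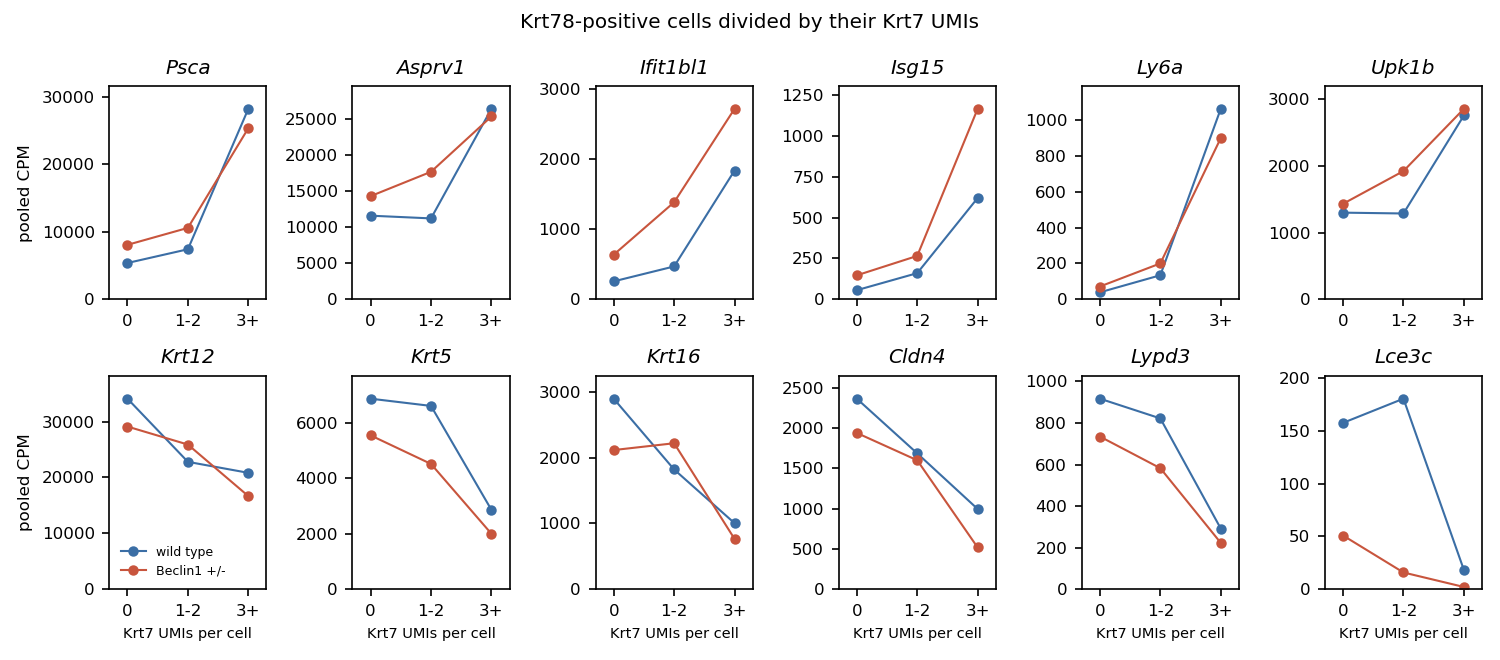
Pooled level (CPM) of 12 genes in Krt78-positive cells with 0, with 1 or 2 and with at least 3 Krt7 UMIs, in the wild-type (blue) and heterozygote (red) libraries; lines join the values of 1 library. Psca, Asprv1, Ifit1bl1, Isg15, Ly6a and Upk1b are higher, and Krt12, Krt5, Krt16, Cldn4, Lypd3 and Lce3c lower, in cells with at least 3 Krt7 UMIs than in cells with none.

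Members were also read by their Ifit3 counts, with 24 and 50 cells at 3 or more UMIs and 51 and 62 at none. The Ifit3-rich cells were deeper (median 33421.5 against 26088 UMIs, and 20992.5 against 19054). Ifit1bl1, a relative of Ifit1 in the same gene cluster, stood at 1427 against 623 and 2066 against 807 CPM, and Isg15 at 487 against 198 and 653 against 321 CPM. Krt13, at 2071 against 1642 and 2513 against 1603 CPM, and Krt12, at 30588 against 28773 and 22696 against 26584 CPM, differed less. In the wild-type library 1 cell held 325 of the 456 Isg15 UMIs of the Ifit3-rich cells, and without it their Isg15 level was 145 CPM, below that of the Ifit3-free cells. Without the cell of most Ifit1bl1 UMIs the Ifit1bl1 level of the Ifit3-rich cells was 1209 and 1923 CPM, above that of the Ifit3-free cells in each library.

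Against Krt78-low cells, the neighbouring corneal cells that met every other threshold, the members had more of a set of surface, keratin and interferon-induced genes and less of the genes that tie basal cells to the matrix. Among 3903 genes of at least 20 CPM on average, 199 were at least 2-fold higher in both libraries (5.1%) and 164 at least 2-fold lower (4.2%). Krt78 chose the members in this contrast, and Krt78-low cells were cut by the same count, so the numbers describe what moves with Krt78 and are read no further. The median log2 ratio over all genes was -0.13 and -0.20. A scaling by the trimmed mean of M values (TMM), which matches the bulk of genes in place of the total UMIs, moved all ratios up by 0.17 and 0.26 and gave 286 genes higher and 89 lower, so that the share of higher genes among those past the fold went from 54.8% to 76.3%.

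The genes highest over Krt78-low cells by the smaller of the 2 ratios were led by Krt7, at 141 against 10.5 CPM in the wild-type and 209 against 32.0 CPM in the heterozygote library, a log2 ratio of 3.74 (95% counting interval 3.43 to 4.07) and 2.71 (2.54 to 2.87). Psca reached 11929 against 818 CPM and 12831 against 2432 CPM, with log2 ratios of 3.87 and 2.40, and was among the most abundant transcripts of the members. Oasl2, an interferon-induced protein related to oligoadenylate synthetase, stood at 66.3 against 3.54 CPM and 101 against 17.8 CPM (4.21 and 2.51). In each case the ratio was larger in the wild-type library, in which the Krt78-low level was lower. Ifit1bl1 followed with 3.64 and 2.38, Pyhin1, an interferon-inducible family member, with 3.37 and 2.45, Adh6a, an alcohol dehydrogenase, with 3.33 and 2.36, and Tspan1, a tetraspanin, with 3.92 and 2.33. The other genes named by the same rule were Bcas1, Krt23, Adgrf1, 2310007B03Rik, Ocm, Omp, Spns2 and Bglap3, with wild-type ratios from 2.41 (Krt23) to 3.75 (Omp) and heterozygote ratios from 2.28 (Bglap3) to 3.16 (Krt23). Bglap3 and Krt23 rested on few cells: Bglap3 had a UMI in 14.8% and 12.1% of members, 1 cell held 28.7% and 38.2% of its UMIs, and for Krt23 1 cell held 14.6% and 24.4%. With members of at least 6 Krt78 UMIs the heterozygote ratio of Bglap3 to Krt78-low cells turned to -1.83.

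Pthlh, which encodes parathyroid hormone-related protein, led the 10 genes lowest in members against Krt78-low cells. It stood at 42.7 against 266 CPM in the wild-type and 35.1 against 212 CPM in the heterozygote library, a log2 ratio of -2.63 (95% counting interval -2.87 to -2.41) and -2.59 (-2.85 to -2.35). Mmp10 (stromelysin-2, a matrix metalloproteinase) gave -3.29 and -2.24 and the collagenase Mmp13 -1.85 and -3.04. Epgn (epigen, an EGF receptor ligand) gave -1.92 and -2.32, Tnfrsf12a, the receptor of TWEAK, -1.93 and -2.14, Cth (cystathionine gamma-lyase) -2.56 and -2.40, and the taurine transporter Slc6a6 -1.95 and -1.88. Pxdc1, Tubb6 and Plek2 completed the 10 lowest, with ratios between -1.90 (Plek2, heterozygote) and -2.13 (Tubb6, heterozygote).

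Among keratins, 12 of 22 listed genes were measured once Krt78, Krt12 and Krt14 had been set aside with the other rule genes, and 5 stood at least 2-fold higher in members (list median 0.90 and 0.32). They were Krt7, Krt23, Krt13 (1.84 and 1.76), Krt19 (334 against 63.0 and 422 against 159 CPM; 2.41 and 1.41) and Krt6b (6436 against 2078 and 6855 against 3011 CPM; 1.63 and 1.19). Krt19 is a keratin of simple and limbal epithelium, and Krt6b is induced in activated and suprabasal keratinocytes. No measured keratin was 2-fold lower. Krt6a reached 8512 and 7074 CPM in members and 5822 and 5891 in Krt78-low cells, Krt15 2882 and 4301 and 1889.8 and 3329, Krt16 2184 and 1780.2 and 1991 and 2109, and Krt5 5749 and 4516 and 6806 and 5945. Krt4, the usual partner of Krt13, was at 71.4 and 90.8 CPM in members against 92.2 and 138 in Krt78-low cells, so that the pair did not move together, and Krt10 was at 42.5 and 28.9 against 45.7 and 44.7. Krt6a and Krt6b are close copies, and their separate values are uncertain.

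Envelope, junction and surface genes were higher in part. Of 14 measured genes of the cornified envelope list, 5 were at least 2-fold higher and 1 lower (median 0.97 and 0.65). Cdsn (corneodesmosin, an adhesive protein of differentiated layers) stood at 66.0 against 10.8 and 51.2 against 18.8 CPM (2.60 and 1.45), Cysrt1 at 1702 against 219 and 2279 against 533 CPM, Cnfn (cornifelin) gave 2.00 and 1.20, Scel (sciellin) 1.87 and 1.38 and the protease inhibitor Csta1 1.63 and 1.06. Anxa1 (annexin A1) was the lower gene (-1.12 and -1.06). Of 15 tight junction genes, 3 were higher and none lower (median 0.33 and 0.23): Cldn23 (2.69 and 1.88), Cldn3 (1.49 (95% counting interval 1.35 to 1.63) and 1.08 (0.98 to 1.19)) and the scaffold Tjp3 (1.13 and 1.08). None of 9 measured desmosome genes passed the fold in either direction (median -0.09 and -0.39). Over all measured genes 5.1% were higher and 4.2% lower, so this count is near that share. Of 12 genes of mucins and surface proteins, 5 were higher and 1 lower (median 0.91 and 0.71). Beside Psca these were the membrane mucins Muc4 (1.90 and 1.52) and Muc20 (2.20 and 1.48), Ly6g6c (1.58 and 1.38) and Upk1b (1.28 and 1.04), and the lower one was Lypd3 (-1.25 and -1.40), a GPI-anchored protein.

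Interferon-induced genes had the highest list median of those examined in this contrast, 2.39 and 1.70, with 9 of the 14 genes measured (of 41 listed) at least 2-fold higher and none lower. Isg15 stood at 228 against 39.0 CPM and 424 against 114 CPM (2.54 (95% counting interval 2.37 to 2.73) and 1.89 (1.79 to 1.99)), and Ifit3 at 49.8 against 5.75 and 107 against 29.0 CPM (3.11 (95% counting interval 2.67 to 3.58) and 1.89 (1.69 to 2.08)). The part of background in the wild-type Krt78-low level of Ifit3 was not tested, so its ratio of 3.11 is uncertain. Rtp4 gave 2.52 and 2.07, Oasl1 2.97 and 2.09, Ifit3b 2.79 and 1.53 and Ifitm1 2.27 and 1.49. Irf7, a transcription factor that amplifies interferon signalling, gave 2.23 and 1.88. Of the 9 higher genes, 8 had a promoter in the table and 4 of these held the response element core, namely Ifit3, Ifit3b and Isg15 as printed above, and Ifit1bl1. Oasl1 and Oasl2 had no core in their windows. Markers of immune cells were read beside these genes. The lymphoid markers Cd3e, Cd3d, Nkg7, Cd79a and Ms4a1 and the leukocyte antigen Ptprc had no UMI in either library. Summed myeloid markers came to 48.8 and 38.2 CPM in members, with 1 of 10 genes (Cd68) at 20 CPM or more, against 18.1 and 33.3 in Krt78-low and 138 and 114 in Lce3a-high cells. The sum was thus higher in members than in Krt78-low cells, as the interferon-induced genes were, and its part in their levels was not tested. Itgam, a myeloid integrin gene outside that list, had a UMI in 59.1% and 56.3% of members. Its 228 and 253 UMIs exceeded the 199 and 147 UMIs of the summed list, and its part was not tested either.

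**Figure D4:**
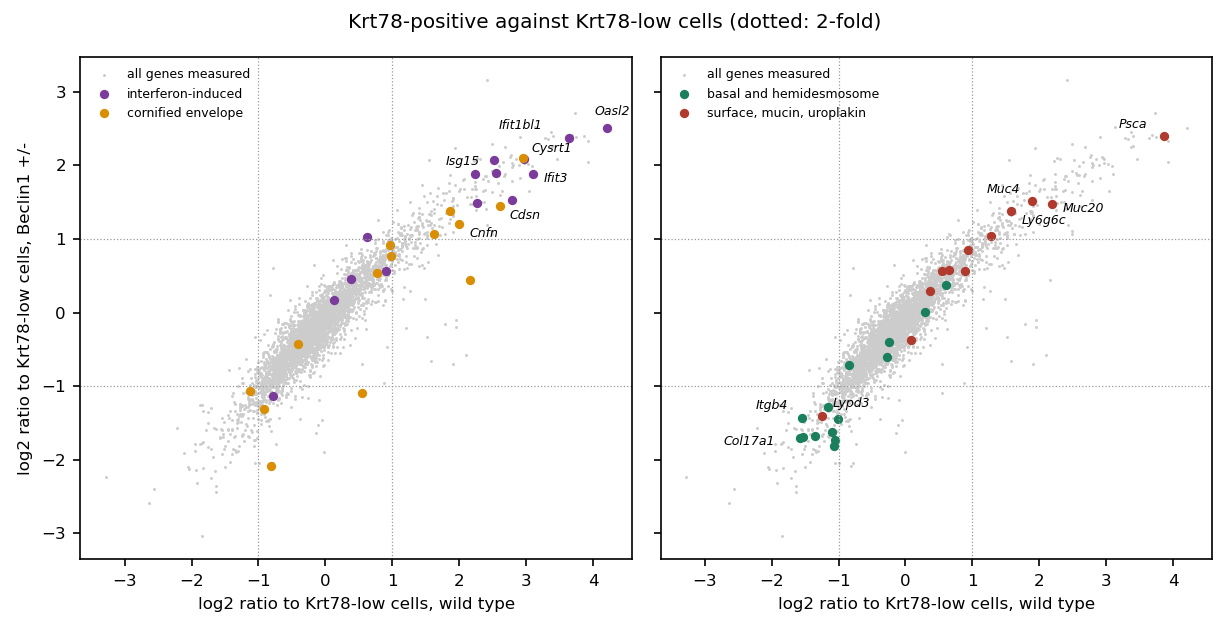
Log2 ratio of Krt78-positive to Krt78-low cells in the wild-type (x axis) and heterozygote library (y axis), each point 1 of 3903 measured genes, with 2 lists coloured in each panel and dotted lines at 2-fold. Most interferon-induced genes lie above both lines (purple), and basal and hemidesmosome genes lie below them or between them (green).

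Genes of the basal layer and the hemidesmosome were lower: 9 of 14 measured genes were at least 2-fold lower and none higher (median -1.06 and -1.43). Col17a1, a transmembrane collagen of hemidesmosomes, stood at 130.1 against 378 CPM and 89.2 against 288 CPM (-1.54 and -1.69), Lama3 (laminin alpha 3) gave -1.58 and -1.71, and the integrins Itgb4 and Itgb1 gave -1.55 and -1.43, and -1.35 and -1.68. Trp63, the transcription factor of basal epithelial identity, gave -1.05 and -1.73. Of 24 measured transcription factors of epithelial differentiation, 3 were higher and 2 lower, Trp63 among them (median -0.05 and -0.24). Hopx gave 2.48 (95% counting interval 2.29 to 2.69) and 1.64 (1.49 to 1.79), Id2, an inhibitor of helix-loop-helix factors, 2.81 and 2.00, and Elf3, an epithelial ETS factor, 1.17 and 1.13. Of 23 proteases and inhibitors, 7 were higher, all of them serine proteases: Prss22 (2.60 and 1.99), Prss27 (2.50 and 1.92), Prss8 (2.35 and 1.66), Klk8 (1.69 and 1.69), Klk11 (1.52 and 1.51), Klk10 (1.40 and 1.43) and Tmprss4 (1.51 and 1.05). The inhibitor Wfdc2 was the only lower gene of that list (-1.88 and -1.25).

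Metabolic, transport and stress lists were mixed. Of all genes measured in this contrast, 5.1% were at least 2-fold higher and 4.2% lower. Lists in which no gene, 1 or 2 passed lay near those shares or held few genes, and are read no further. Of 11 genes of corneal crystallins and redox enzymes (median -0.56 and -0.98), 3 were higher (Gsto1, 1.73 and 1.28; Fth1, 1.63 and 1.40; Txnrd1, 1.18 and 1.00) and 3 lower (Txn1, -1.32 and -1.57; Tkt, -1.39 and -1.46; Aldh1a1, -1.03 and -1.25). Tkt (transketolase) and Aldh1a1 are abundant soluble proteins of the cornea. Of 7 ion and water transport genes, 1 was higher, the cotransporter Slc12a2 (1.77 and 1.53), and 2 were lower, among them the glucose transporter Slc2a1 (-1.50 and -1.81). The cholesterol synthesis list had a median of 0.24 and 0.11 over 23 measured genes. Only Insig1, which restrains the pathway and is no enzyme of it, passed the fold (1.84 and 1.21). No gene passed it among 18 of autophagy (median 0.11 and 0.09), 18 of the lysosome (median -0.00 and -0.26) or 4 of Notch signalling (median -0.47 and -0.88). In the remaining lists 1 gene or 2 passed: Dgat2 (1.10 and 1.09) of 7 lipid barrier genes, Il18 (1.59 and 1.15) of 16 S100 and alarm genes, Psmb8 (1.73 and 1.46) of 7 antigen presentation genes, Cyr61 (-1.39 and -1.13) of 20 immediate early genes, Ddit4 (-1.56 and -1.58) and Hspa8 (-1.35 and -1.24) of 16 stress genes, Ccnd1 (-1.05 and -1.08) of 5 cell cycle genes, and Slc2a1 again of 13 glycolysis genes.

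Compared with Lce3a-high cells, which carry a late envelope gene and stand for the most superficial cells, the members kept more of the genes of desmosomes and sterol synthesis and had less of Lce3 envelope genes and of several alarm genes. Of 3229 measured genes, 1120 were at least 2-fold higher in members in both libraries (34.7%) and 215 lower (6.66%). The median gene was higher by 0.84 and 0.81 on the log2 scale. Psca alone was at 34838 and 30912 CPM in Lce3a-high cells. TMM scaling lowered all ratios by 0.96 and 0.88 and gave 190 genes higher and 589 lower, so that higher genes fell from 83.9% to 24.4% of those past the fold. Lce3a was a gate on both sides and is not read here.

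All 9 measured desmosome genes were at least 2-fold higher in members, with a median of 2.67 and 2.14 against 0.84 and 0.81 for all genes, and a median of 1.71 and 1.26 under TMM. The desmosomal cadherin Dsg1a stood at 216 against 20.1 and 163 against 20.0 CPM (3.40 (95% counting interval 2.92 to 3.97) and 3.02 (2.62 to 3.46)), the plaque protein Pkp1 gave 3.18 and 2.78, Dsg3 3.76 and 2.47 and desmoplakin (Dsp) 2.85 and 2.47. Of 21 genes of cholesterol synthesis, 18 were higher (median 2.43 and 1.81; 1.48 and 0.93 under TMM), with lanosterol synthase (Lss) at 45.2 against 4.27 and 38.5 against 4.53 CPM (3.31 and 3.03), and Insig1 was lower (-1.70 and -1.16). Of 15 tight junction genes 6 were higher and 1 lower, Cldn4 by 3.31 and 2.48, Cldn3 by 2.83 and 2.65 and Cldn23 by -1.88 and -1.39. Under TMM the tight junction median was 0.10 and 0.12, near that of all genes. Of the 15 genes named as highest, Dsg1a, Pkp1 and Lss belonged to these lists. The others were Saa1 (serum amyloid A, 3.26 and 4.32), Efna5 (an ephrin ligand, 2.98 and 3.13), Lgalsl (3.23 and 3.09), Tmem154, Lrrc26, Gm16136, Psapl1, Uck2, Kctd12, Svip, Kif1c and Bag2, with ratios from 2.71 (Bag2, wild type) to 3.90 (Psapl1, wild type).

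Of 16 measured envelope genes, 8 were lower and 3 higher in members than in Lce3a-high cells. Lce3b, encoded beside Lce3a, had 3 UMIs in the members of each library against 516 and 2532 in Lce3a-high cells, log2 ratios of -8.52 (95% counting interval -11.02 to -7.18) and -10.04 (-12.54 to -8.71). Lce3f gave -7.13 and -9.28, Crct1 -4.35 and -5.02 and Cnfn -1.81 and -2.36. The Lce3 genes are similar copies, so reads may be shared between them, and Lce3a was the gate. The Lce3b and Lce3f ratios therefore describe that cut and are read no further. The 3 higher envelope genes were Cdsn (1.83 and 2.53), Evpl (envoplakin, 2.58 and 2.62) and Tgm1 (the transglutaminase that crosslinks the envelope, 1.81 and 1.71). Of 17 measured S100 and alarm genes, 6 were lower, 1 higher and 10 past the fold in neither direction. S100a9 stood at 46.6 against 1185 and 107 against 1755 CPM (-4.66 and -4.04), and the chemokine Cxcl2 gave -4.38 and -4.26. Psors1c2, Duoxa2 (maturation factor of a peroxide-producing oxidase), Il1r2 (a decoy receptor for interleukin 1), Smpdl3b and Kprp were the other lowest genes, with ratios from -5.78 (Psors1c2, wild type) to -3.77 (Kprp, heterozygote). Krt7 (-2.67 and -2.23) and Krt23 (-4.14 and -2.79) were lower and Krt5 (2.37 and 2.25), Krt6a (2.19 and 1.65), Krt15 (2.28 and 1.74) and Krt16 (2.63 and 1.34) higher in members.

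Interferon-induced genes were lower in members than in Lce3a-high cells for 4 of 17 measured genes and higher for none (median -0.83 and -0.59; -1.79 and -1.47 under TMM). Isg15 stood at 228 against 1196 and 424 against 1776 CPM (-2.39 and -2.06), Rtp4 gave -2.72 and -2.07, Irf7 -2.27 and -1.52 and Zbp1 -1.31 and -1.18. Ifit3 did not pass the fold (0.37 and -0.03). Hopx was higher (1.37 (95% counting interval 1.08 to 1.67) and 1.83 (1.55 to 2.12)), but with TMM scaling its smaller ratio over the 3 other populations was 0.41. None of 15 autophagy genes passed the fold, where 34.7% of all measured genes were higher and 6.66% lower. The autophagy median was 0.06 and 0.21, below the 0.84 and 0.81 of all genes. TMM scaling lowered both medians alike, by 0.96 and 0.88, and the autophagy count under it is not given here.

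Krt14-high cells, the basal-type corneal cells, differed from the members in 589 genes at least 2-fold higher (14.7%) and 751 at least 2-fold lower (18.7%) of 4011. Under TMM, which moved ratios by 0.13 and 0.28, these counts were 691 and 573, and the share of higher genes went from 44.0% to 54.7%. Krt14 was a gate on both sides of this comparison, and Krt78 chose the members, so the numbers describe what moves with those gates. Psca stood at 11929 against 53.0 CPM and 12831 against 210.4 CPM (7.81 (95% counting interval 7.71 to 7.92) and 5.93 (5.88 to 5.98)), the highest ratio by the naming rule. Interferon-induced genes were higher for 11 of 14 (median 4.22 and 3.94): Oasl1 (74.9 against 0.550 and 91.5 against 1.88 CPM), Ifit1bl1 (7.16 and 5.42), Ifit3 (5.75 (95% counting interval 4.99 to 6.73) and 4.70 (4.36 to 5.06)) and Isg15 (4.60 and 4.47) led them. Ifitm3 ran the other way, at 43.0 against 343 and 45.8 against 452 CPM (-2.99 and -3.30). Envelope genes were higher for 9 of 14 and lower for 1, with Cysrt1 at 6.53 and 5.27 and Cdsn at 5.08 and 4.41. Surface and mucin genes were higher for 9 of 11, with Muc20 at 6.10 and 4.30 and Muc4 at 5.57 and 4.09. Of the markers, Hopx gave 5.94 (95% counting interval 5.50 to 6.45) and 4.81 (4.53 to 5.11), Krt13 5.08 and 4.42 and Cldn3 4.42 and 3.51. The other named higher genes were Plekhs1, Adh6a, Tspan1, Alpl (tissue-nonspecific alkaline phosphatase), 2310007B03Rik, AA467197, Slc34a2 (a phosphate transporter), Bglap3, Omp, Itgam and Slc39a4 (a zinc transporter), with heterozygote ratios from 5.18 (Slc39a4) to 5.59 (Plekhs1). Alpl had only 2 UMIs in wild-type Krt14-high cells, so its wild-type ratio of 8.17 has an interval of 6.61 to 11.54.

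Of the 16 measured basal and hemidesmosome genes, 12 were lower in members than in Krt14-high cells and 1, Krt15, was higher (2.01 and 2.11). Krt14 itself marks basal cells, so lower basal genes go with that cut and are read no further. Lamb3 (laminin beta 3) stood at 7.12 against 144 and 4.94 against 95.9 CPM (-4.31 (95% counting interval -4.92 to -3.81) and -4.24 (-5.01 to -3.63)), Itgb1 gave -3.46 and -3.77, Itgb4 -3.18 and -3.39 and Col17a1 -2.24 and -2.61. Of 10 cell cycle genes, 8 were lower, among them Top2a (-2.74 and -4.02) and Ube2c (-3.16 and -3.96), and the cyclin kinase inhibitor Cdkn2b was higher (2.77 and 2.46). The lowest genes by the naming rule also included Mmp10 (-4.95 and -4.14) and Mmp13 (-3.75 and -4.97), Tubb6, Plek2, Cth, Slc6a6, the actin bundler Fscn1, the Wnt ligand Wnt10a and the cytokine Csf3, all between -4.97 (Mmp13, heterozygote) and -3.75 (Mmp13, wild type).

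Genes at their highest in the members were sought as those at least 1.5-fold above all 3 other epithelial populations in both libraries, a rule chosen after values had been seen. Of 3765 measured genes, 54 met it (1.43%), and 8 were at least 1.5-fold below all 3 (0.212%). TMM scaling gave 35 (0.93%) and 25 (0.664%), and 15 and 5 genes met the rule under both scalings. The 3 comparisons share the members' own counts, so passing all 3 is no independent evidence. Cldn3 stood at 241 CPM in the wild-type library, against 11.2 in Krt14-high, 85.7 in Krt78-low and 33.5 in Lce3a-high cells, and at 293 against 25.7, 138 and 46.5 in the heterozygote library. Cdsn stood at 66.0 CPM in the wild-type library, against 1.93 in Krt14-high, 10.8 in Krt78-low and 18.3 in Lce3a-high cells, and at 51.2 against 2.39, 18.8 and 8.69 in the heterozygote library. These levels in members were more than 1.5-fold above each of the others under either scaling. Cdsn had a UMI in 47.8% and 33.3% of members, so its pooled level describes a minority of them. The 12 and 18 members richest in Cdsn held 61.3% and 70.6% of its UMIs. Tgm1 stood at 71.7 CPM in the wild-type library, against 23.1 in Krt14-high, 36.7 in Krt78-low and 20.1 in Lce3a-high cells, and at 73.3 against 19.3, 38.8 and 22.3 in the heterozygote library. Lgalsl stood at 146 CPM in the wild-type library, against 12.2 in Krt14-high, 46.3 in Krt78-low and 15.2 in Lce3a-high cells, and at 104 against 15.2, 54.8 and 12.1 in the heterozygote library. Ablim1 stood at 378 CPM in the wild-type library, against 23.5 in Krt14-high, 193 in Krt78-low and 101 in Lce3a-high cells, and at 353 against 40.3, 227 and 89.2 in the heterozygote library. Ablim1 encodes an actin-binding LIM protein. The other genes above under both scalings were Cpn1, Arhgap27os1, Srp68, Oit1, Mgll (monoglyceride lipase), Sh3d19, Galnt4 (a mucin-type glycosyltransferase), Ppfibp2, Cwh43 and Atp2c1 (a Golgi calcium pump). Hopx, Ppl (periplakin), Il18, Aqp5 (aquaporin 5), St14 (matriptase) and Cst6 met the rule only with scaling to total UMIs. Genes at their lowest in the members under both scalings were Glul (glutamine synthetase), Slc39a6, Degs1 (a ceramide desaturase), Nppb (brain natriuretic peptide) and Ifitm3. Glul stood at 199.8 CPM in the wild-type library, against 921 in Krt14-high, 498 in Krt78-low and 629.8 in Lce3a-high cells, and at 171 against 776, 444 and 718 in the heterozygote library. Glul was thus high on both sides of the members, in basal-type and in Lce3a-high cells.

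Between the genotypes, the named genes higher in heterozygote members were led by Ocm and Nt5e, and several interferon-induced genes were among the rest. Genes higher in wild-type members included a few envelope and ribosomal genes, and collagens whose difference rested on 5 cells. Becn1, the targeted gene, stood at 53.5 and 56.2 CPM, a log2 ratio of heterozygote over wild type of 0.07 (-0.21 to 0.35). The part of the gene deleted in these mice is not given in the sources used here, and 3′ tags outside it would be read from either allele, so this value does not check the labels. Of 3716 measured genes, 55 were at least 1.5-fold higher in the heterozygote members (1.48%) and 168 lower (4.52%), around a median of -0.05. TMM scaling moved ratios up by 0.12 and gave 107 higher and 89 lower, so that higher genes made up 54.6% in place of 24.7% of those past the fold. Leaving out 5 wild-type cells rich in collagen, described below, gave 39 higher and 88 lower of 3687.

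The markers chosen for these cells were nearly level between the libraries, with the exception of Ifit3. The log2 ratio of heterozygote over wild type was 0.03 (-0.02 to 0.08) for Krt13, -0.06 (-0.22 to 0.09) for Hopx and 0.28 (0.16 to 0.41) for Cldn3. Ifit3 stood at 49.8 and 107 CPM (1.11 (0.86 to 1.36)). Of 16 measured interferon-induced genes, 10 were at least 1.5-fold higher in the heterozygote members and none lower (median 0.67), and without the 5 collagen-rich cells 8 were (0.62). Isg15 stood at 228 and 424 CPM (0.90 (0.78 to 1.02)), Ifit1bl1 at 722 and 1260.4 (0.80 (0.74 to 0.87)), Ifit1 at 37.8 and 88.7 (1.23 (0.95 to 1.51)) and Rtp4 at 22.3 and 63.2. For Isg15 the ratio without the cell of each library that held most of its UMIs was 1.41. The same ratio in Krt78-low cells was 2.32 for Ifit3, over a wild-type level whose background part was not tested. It was 1.55 for Isg15 and 1.57 for Ifit1 in those cells, and 0.73 for Ifit3 in Dcn-high cells. Not all followed: Ifit1bl1 was at -0.37 (-0.43 to -0.31) in Lce3a-high and 0.12 (-0.11 to 0.36) in Dcn-high cells, and Oasl2 was at -0.31 and Irf7 at -0.06 in Lce3a-high cells, where Ifit3 was at 1.51 and Isg15 at 0.57. No test of a difference between populations is possible with 1 library each.

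**Figure D5:**
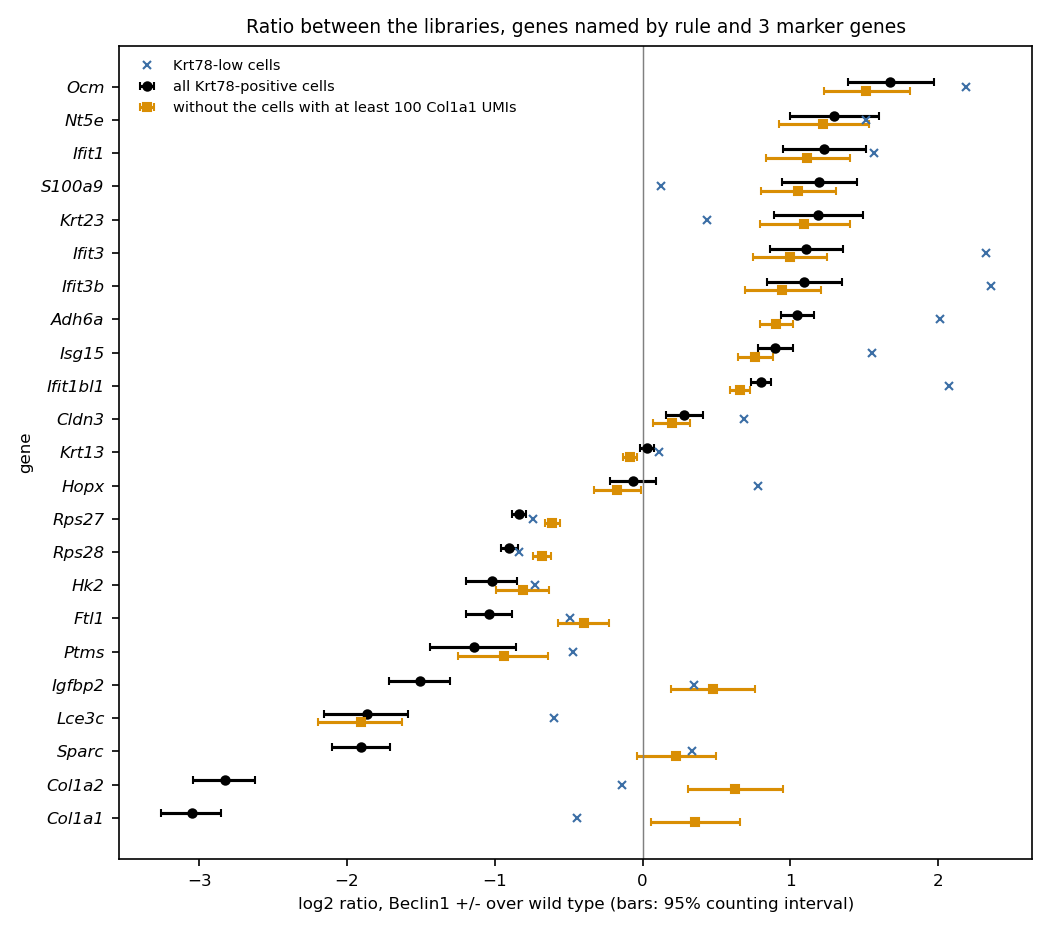
Log2 ratio of heterozygote over wild type for the genes named by rule and 3 markers, in all Krt78-positive cells (black), without the cells of at least 100 Col1a1 UMIs (orange) and in Krt78-low cells (crosses), with bars for 95% counting intervals. Ifit1, Ifit3, Ifit3b and Isg15 lie above 0 in all 3, and Col1a1, Col1a2, Sparc and Igfbp2 cross from below to above 0 without the collagen-rich cells.

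Other genes higher in heterozygote members were Ocm (oncomodulin, a calcium-binding parvalbumin), at 32.6 and 104 CPM (1.67 (1.39 to 1.97); 2.19 in Krt78-low cells), Nt5e (CD73, which makes adenosine), at 33.1 and 81.4 (1.29 (1.00 to 1.60); 1.51), Adh6a, at 234 and 483 (1.05 (0.94 to 1.16); 2.01), and Krt23, at 33.6 and 76.7 (1.19 (0.89 to 1.49); 0.43). S100a9, an alarm protein, was at 46.6 and 107 CPM (1.19 (0.94 to 1.45); 0.13 in Krt78-low cells), and Ifit3b gave 1.09 (2.35). None of 17 measured autophagy genes passed 1.5-fold in either direction, and their median was 0.07, against -0.05 for all genes. Over all measured genes 1.48% were higher and 4.52% lower, so this count is near that share and is no result about autophagy. Envelope genes were lower in the heterozygote members for 5 of 15. Lce3c stood at 124 and 34.1 CPM (-1.86 (-2.15 to -1.59); -0.60 in Krt78-low cells), Sprr1a at 1218 and 716 (-0.77 (-0.84 to -0.70)), and Crct1, Dmkn and Cnfn gave -0.79, -0.84 and -0.61. Lce3c rested on few cells, with a UMI in 35.7% and 14.9% of members. The 12 and 18 members richest in it held 82.4% and 93.9% of its UMIs. Without the cell of each library that held most of them its ratio was -2.12. Sprr and Lce genes belong to families of similar copies. Of 23 differentiation factors, 4 were lower, Sox9 (-1.22), Id3 (-1.02), the Notch target Hes1 (-0.87) and Cebpb (-0.64), and without the collagen-rich cells 2 were. Of 20 immediate early genes, 4 were lower, Klf2 (-1.16), Fosb (-0.90), Rhob (-0.85) and Nr4a2 (-0.64), and without the collagen-rich cells 2 were. The ferritin chains ran apart, Fth1 at 0.66 and Ftl1 at -1.04, the latter -0.40 without the collagen-rich cells. Hk2 (hexokinase 2) gave -1.02, Ptms (parathymosin) -1.14, and the ribosomal protein genes Rps28 and Rps27 gave -0.90 and -0.83. Without those cells the values were -0.81 for Hk2, -0.94 for Ptms, -0.68 for Rps28 and -0.61 for Rps27.

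The lowest ratios of all belonged to stromal matrix genes and rested on 5 wild-type cells. Col1a1 (type I collagen) stood at 481 and 58.0 CPM (-3.05 (-3.26 to -2.85)) and Col1a2 at 398 and 55.9 (-2.83 (-3.04 to -2.63)). Of the 1961 Col1a1 UMIs in wild-type members, 1796 (91.6%) were in 5 cells of 119 to 644 each, no other wild-type member had more than 7, and no heterozygote member had more than 7. These 5 cells had a median depth of 97508 UMIs and held 36 Krt78 UMIs. Without them the ratio was 0.36 for Col1a1, 0.62 for Col1a2, 0.23 for Sparc, a matrix glycoprotein, and 0.48 for Igfbp2, a growth factor binding protein, so that the direction of all 4 reversed. Sparc and Igfbp2 had been at -1.90 and -1.50 with them. The keratocyte markers Kera and Lum were at 31.7 and 7.80 and at 31.9 and 14.3 CPM in members, against 3595 and 3077 and 4581 and 4614 in Dcn-high cells, and 6 of 7 and 4 of 7 genes of that list reached 20 CPM in members. Aldh3a1 of that list is also a major protein of the corneal epithelium (5453 and 5502 CPM in members). The 51 wild-type and 213 heterozygote barcodes of highest Scrublet score, numbers set by library size, included 2 members of each library. Whether the collagen-rich barcodes hold more than 1 cell was not tested further.

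Markers of other cell types were read in the members because the rim can hold conjunctival and stromal cells. The goblet cell genes Muc5ac, Muc5b, Tff1 and Tff3 had no UMI in either library, which allows up to 0.736 and 0.780 CPM, and no goblet gene of 7 reached 20 CPM. Of 7 conjunctival genes 6 reached 20 CPM, and the sum of the list was 11755 and 10734 CPM, against 6735 and 7149.6 in Krt78-low cells. Krt6a alone held 34677 and 27202 of the 47889 and 41279 UMIs summed in members. Krt4 was lower in members than in Krt78-low cells, while Krt13, Krt19, Krt7 and Muc4 were higher, as given above. That list shares Krt13, Krt19, Krt7, Krt6a and Muc4 with genes already described, and Krt8 was at 13.5 and 15.6 CPM. No mast cell gene of 7 reached 20 CPM. Mcpt4, Tpsb2 and Cma1 of that list belong to the selection rule, which held them down in every member, so their low levels are no result. The part of conjunctival cells in these results was not tested.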

How the data were processed

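Cells of the cornea and limbus rim of 1 wild-type and 1 beclin1 +/- mouse were profiled with the 10x Genomics droplet protocol. What the authors deposited are raw UMI counts, 1 whole number for each gene and barcode. Per the submitters' processing notes Cell Ranger 2.1.1 and build mm10 were used. The annotation release and the rule that called cells were not given in the sources used here. All deposited barcodes were used, and no column of the files was left unassigned (0). Doublets were treated by an alternative that dropped the barcodes of highest Scrublet score (scanpy 1.11.5) at 0.8% per 1000 barcodes.

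Counts were summed over the cells of a population in each library and scaled to CPM. Ratios are log2 with 0.5 added to each count, with exact conditional 95% intervals; levels have exact Poisson and shares of cells exact binomial intervals. A gene was measured at a mean of at least 20 CPM, the 9 genes of the selection rule left out, and counted as past the fold at 2-fold in the same direction in both libraries (1.5-fold between genotypes, with 1 library each). With 1 library per genotype no test was made. Named genes were the 15 highest and 10 lowest in each comparison of populations by the smaller of their 2 ratios, the 10 highest and 10 lowest between genotypes by the interval bound nearest 0 among genes of at least 50 CPM, the 4 leading genes of each list, the markers and the measured keratins. A few genes outside these, such as Ly6a and Asprv1 in the division by Krt7 and the examples among genes above or below all other populations, were chosen after their values were seen. Some genes that this rule names are not reported here. The members, gene lists and comparisons were chosen with earlier results of these data known.

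Alternatives changed the Krt78 and Krt12 thresholds, depth, doublets, shared barcodes, weighting of cells, scaling (TMM), the added count and the filter on low genes. A further 4 settings were added after seeing the data: leaving out cells of at least 100 Col1a1 UMIs, leaving out the top cell of each gene between genotypes and within divisions of the members, and TMM scaling for the genes above or below all other populations. The ratio calculation was tested on simulated counts. Positions come from GENCODE M21, which held 27645 of 27998 features, and promoters from RefSeq. Scripts ran in Python 3.11.15 with pandas 2.3.3, numpy 2.4.6, matplotlib 3.10.9 and scipy 1.17.1.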

Additional observations from a re-analysis of the deposited data

Results flagged for a closer look

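For 2 genes the ratio between the libraries ran in opposite directions in Krt78-positive and in Krt78-low cells, with both counting intervals clear of 0. The log2 ratio of heterozygote over wild type for Sparc was -1.90 in the members and 0.34 in Krt78-low cells, and for Igfbp2 it was -1.50 and 0.35. With 1 library per genotype the difference was not tested. Without the 5 wild-type members of at least 100 Col1a1 UMIs the ratios in members were 0.23 for Sparc and 0.48 for Igfbp2, in the same direction as in Krt78-low cells.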

How the results depend on the processing

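The share of Krt78-positive cells followed the thresholds. It was 4.77% in the heterozygote library at 2 or more Krt78 UMIs, 2.98% and 1.40% (wild type and heterozygote) at 6 or more, 2.51% and 1.84% at 250 CPM or more in place of 3 UMIs, 3.78% and 2.50% with Krt12 at 16000 CPM or more, and 4.16% in the heterozygote library at the depth of the lowest wild-type barcode. The wild-type share, 5.29% at 2 or more UMIs, was the higher at each of these settings.

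Against Krt78-low cells, genes at least 2-fold higher and lower numbered 64 and 47 at 100 CPM and 1263 and 971 without a filter. Lower genes numbered 409 with the 250 CPM rule, 296 after thinning, 318 with cells weighted equally and 89 under TMM, and higher genes made up 43.4% after thinning and 41.7% with equal weights. Against Lce3a-high cells the counts were 190 and 589 under TMM, 242 and 109 at 100 CPM and 4170 and 932 without a filter, and against Krt14-high cells 179 and 234, and 2222 and 2702. Between genotypes they were 124 and 314 at 6 or more Krt78 UMIs, 178 and 357 after thinning, 107 and 89 under TMM, 14 and 29 at 100 CPM and 1583 and 3865 without a filter, with 129 higher at 250 CPM and 88 lower without the collagen-rich cells. Genes above and below all 3 other populations numbered 35 and 25 under TMM, 14 and 3 at 100 CPM and 263 and 107 without a filter, with 15 below at 6 or more UMIs, 38 at 250 CPM, 19 after thinning and 17 with cells weighted equally. Filters change how many genes are counted, and stricter thresholds leave fewer cells; the cause of the other shifts was not tested.

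Directions of Col1a1, Col1a2, Sparc and Igfbp2 between genotypes reversed to 0.33, 0.40, 0.22 and 0.26 at 250 CPM and to 0.36, 0.62, 0.23 and 0.48 without the collagen-rich cells. The Bglap3 ratio to Krt78-low cells in the heterozygote library was -1.83 at 6 or more UMIs, and the median of ion and water transport genes against Lce3a-high cells was -0.54 in the heterozygote library without a filter. The thinned Ifit3 share of heterozygote members was 41.7% at 6 or more UMIs. Doublet removal, shared barcodes and the added count changed none of the counts above by over 1.5 times. No paired analysis was possible because each genotype has 1 library, whose replicate number only names it. Intervals cover counting error in 1 animal each, and genotype, animal and library cannot be told apart.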
